A study of Mus musculus with 6 samples.

Results

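The matrix metalloproteinases (MMPs) and tissue inhibitors of metalloproteinases (TIMPs) that are known from mammary involution were followed on expression arrays of Rac1-/- and WT mammary glands at involution day 2. The genes were Mmp2, Mmp3, Mmp9, Mmp11, Mmp12, Mmp13, Mmp14, Timp1, Timp2 and Timp3, and every probe set whose platform annotation names one of them alone was taken. This gave 22 of the 45101 probe sets on the array, 11 for the 7 MMPs and 11 for the 3 TIMPs, and each gene had at least 1. They were chosen by name and not by their values.

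The tested mice were 3 Rac1fx/fxYFP;WAPiCreTg/• females (Rac1-/-; Nas496, Nas497 and Nas518), in which Cre under the whey acidic protein promoter removes floxed Rac1 from luminal epithelial cells from mid-pregnancy. The 3 WT mice (Nas478, Nas483 and Nas484) were Rac1fx/fxYFP females without Cre, so both groups carried the floxed alleles and the YFP reporter, and no array was made from mice with Cre and intact Rac1. All were age matched and had nursed a litter, the pups were removed 2 days before the glands were taken, and each array held RNA of 1 mouse (the methods name the fourth inguinal gland for RNA isolation). Whole glands were used, so stromal, immune, fat and myoepithelial cells with intact Rac1 contributed RNA, and fewer cells of a type and less RNA per cell cannot be told apart.

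MMPs are zinc-dependent endopeptidases that are made as inactive precursors and cleave collagens, laminins, fibronectin and other proteins around cells. TIMPs bind the active site of MMPs and block it. Involution begins with a reversible phase of cell death and milk clearance, in which TIMPs restrain the proteases, and passes into a phase in which MMPs dissolve the basement membrane, alveoli collapse and fat cells refill the gland. Most of these genes are expressed mainly by the stroma of the gland.

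The deposited linear intensities average 100 on every array once the highest and lowest 2% are left aside, and the values below are log2 intensities after quantile normalization between arrays (n = 3 mice per group). A level of one probe set cannot be set against that of another, because probe sets bind with different strength. The arrays differed in range: the interquartile range of log2 intensities ran from 1.23 to 1.98 on the Rac1-/- arrays and from 1.42 to 2.85 on the WT arrays. Nas497 (Rac1-/-) and Nas484 (WT) scored highest along the first principal component (44.0% of the variance), at 174 and 101. The other 4 arrays were spread along it too, from 4.13 in Nas518 and -50.7 in Nas496 to -113 in Nas478 and -115 in Nas483. The log2 difference of 3' minus 5' probe sets, a sign of RNA quality, is negative where the 5' set is the brighter. It separated the genotypes for actin but not for Gapdh. For actin it lay between -1.24 and -0.30 in Rac1-/- glands and between -0.17 and 0.048 in WT glands. For Gapdh it was -0.044, 0.18 and -0.058 in Rac1-/- glands and -0.037, 0.016 and 0.16 in WT glands. The brightest of 3 Rac1 probe sets overlapped between the groups, with 9.51, 9.01 and 9.84 in Rac1-/- glands and 9.31, 9.5 and 8.97 in WT glands, in the order of mice given above. The second had 8.77, 8.34 and 8.14 in Rac1-/- glands and 8.74, 9.0 and 9.89 in WT glands (log2 fold change -0.80, SE 0.50). The third, with 1 value at the floor, had -1.38 (SE 1.05), and none of the 3 separated the groups or passed the test (limma adjusted p from 0.957 to 0.975). Whether they lie in the deleted part of the gene is not given in the sources used here. The milk protein genes Csn2 and Csn3, which mark secretory mammary epithelium, were among the brightest probe sets in all glands. Wap (whey acidic protein), whose promoter drives the Cre, averaged 12.3 ± 0.43 in Rac1-/- and 15.05 ± 0.23 in WT glands (SD, n = 3 each).

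None of the 22 probe sets passed limma's test between the genotypes at a Benjamini-Hochberg adjusted p under 0.05, and neither did any of the 34958 probe sets tested (0%, smallest adjusted p = 0.957). At an unadjusted p under 0.05 in limma, 1 of the 22 probe sets was higher (a probe set of Mmp14) and 0 were lower, and 1456 of all probe sets had such a p in either direction. Each gene is represented below by its probe set with the highest mean, unless another is named. With every Rac1-/- value above every WT value there were 2 of the 10 genes, Mmp2 and Timp1, against 5.41% of all 18194 genes, and with every value below there were 0, against 4.2% of all genes. No gene of the 10 had an unadjusted p under 0.05 (background 1.95% higher and 1.58% lower). With 3 mice per group the two-sided exact permutation test has a smallest p of 0.1, reached when the groups are fully apart.

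**Figure D1:**
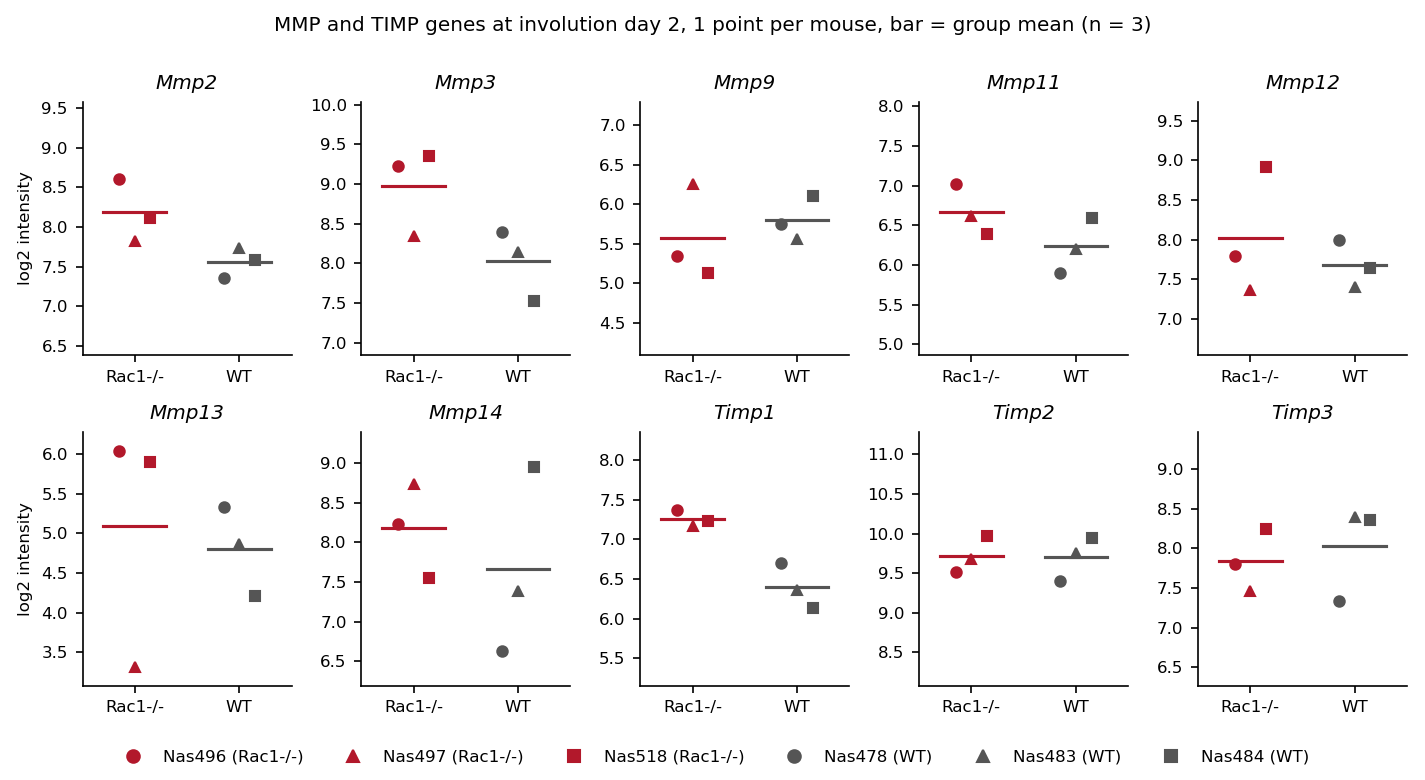
Quantile-normalized log2 intensity of the 10 genes at involution day 2, on the brightest probe set of each, in 3 Rac1-/- mice (red, left) and 3 WT mice (grey, right). Each point is 1 mouse, each bar the mean of its group, and every panel spans the same number of log2 units; the groups are apart only for Mmp2 and Timp1.

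Timp1 was the one inhibitor whose groups did not overlap. It is the secreted TIMP that inflammation and acute phase signals induce. On its single probe set (1460227_at) the log2 intensity was 7.37, 7.16 and 7.24 in Rac1-/- glands and 6.71, 6.37 and 6.14 in WT glands. All Rac1-/- mice lay above all WT mice, and the Rac1-/- mice lay closer to each other (SD 0.11) than the WT mice did (SD 0.29). The log2 fold change was 0.86 (SE 0.44, limma adjusted p = 0.957, exact permutation p = 0.1), or 1.81-fold. The intensities as deposited were also apart, at 170, 144 and 148 in Rac1-/- glands and 92.6, 67.1 and 79.1 in WT glands. The estimate stayed above 0 under all 19 alternative settings, from 0.49 to 1.09, although with arrays scaled to a common median it was 0.49 and the groups overlapped. Some of the 19 could not move it and left it at 0.86. Among these were a block term for Nas497 and Nas484 and the settings on the choice of probe set.

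For Timp2 and Timp3 the groups overlapped on every probe set. Timp2 inhibits MMPs and also takes part, with Mmp14, in the activation of the Mmp2 precursor at the cell surface. On its brightest probe set (1433662_s_at) Timp2 had 9.52, 9.68 and 9.97 in Rac1-/- glands and 9.40, 9.75 and 9.95 in WT glands, and the groups lay over each other (log2 fold change 0.022, SE 0.44). The remaining 5 probe sets of Timp2 all had estimates below 0, from -1.15 to -0.16, all with overlapping groups.

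Among these, the bright probe set 1460287_at had 9.17, 9.89 and 8.52 in Rac1-/- glands and 9.22, 9.81 and 10.6 in WT glands, a log2 fold change of -0.67 (SE 0.57). Another (1450040_at) had 8.90, 7.71 and 8.88 in Rac1-/- glands and 8.44, 9.14 and 9.43 in WT glands, a log2 fold change of -0.51 (SE 0.54). On both sets the WT mouse Nas484 was the highest of the 6. A dim probe set (1437081_at) ran from 0.30 to 7.53 in Rac1-/- glands and from 2.07 to 7.09 in WT glands, a spread that leaves its estimate of -1.15 with an SE of 1.89. Without normalization between arrays, and in the intensities as deposited, the brightest Timp2 probe set was lower in every Rac1-/- mouse, at 841, 403 and 772 in Rac1-/- glands and 922, 1128 and 843 in WT glands. The same held for the deposited intensities of 1460287_at, at 647, 464 and 323 in Rac1-/- glands and 819, 1171 and 1291 in WT glands. For the brightest set the log2 fold change without normalization was -0.58, and with arrays scaled to a common median it was -1.05, so its sign rests on the scaling. It also turned, to -0.10, without Nas518 and, to -0.13, without Nas478.

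Timp3, the inhibitor that stays bound to the extracellular matrix and also blocks ADAM17, had 7.81, 7.46 and 8.24 in Rac1-/- glands and 7.34, 8.40 and 8.36 in WT glands on its brightest probe set (1419089_at). The log2 fold change was -0.20 (SE 0.51), with overlapping groups. All 4 probe sets of Timp3 had estimates below 0, from -1.01 to -0.12, and all 4 overlapped. The widest spread was on 1449334_at, with 6.56, 7.60 and 5.31 in Rac1-/- glands and 6.45, 6.40 and 9.65 in WT glands. There the value of Nas484 stood well above the other 5 mice, and the SE of the estimate, 0.98, was about as large as the estimate itself. The platform annotation gives the same source sequence for all 4 sets, so they are not independent measurements. Without both Nas497 and Nas484 the brightest set gave 0.18, and without Nas497 alone -0.0056, so the side of 0 on which Timp3 lay also depended on these arrays.

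Of the proteases, Mmp2 (gelatinase A, which cleaves type IV collagen and denatured collagen) was the one whose brightest probe set separated the genotypes. On 1416136_at it had 8.61, 7.83 and 8.12 in Rac1-/- glands and 7.35, 7.74 and 7.58 in WT glands. The groups were close, since the lowest Rac1-/- mouse, Nas497, lay just above the highest WT mouse, Nas483. The log2 fold change was 0.63 (SE 0.45, limma adjusted p = 0.957, exact permutation p = 0.1), or 1.55-fold. The other Mmp2 probe set (1439364_a_at) gave 0.47 (SE 0.58) with overlapping groups, and the deposited intensities of both overlapped. With arrays scaled to a common median the estimate was -0.017, and without Nas496 it was 0.41.

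Mmp14 is the membrane-type MMP that activates the Mmp2 precursor and cleaves fibrillar collagen next to the cell. Its 3 probe sets gave different estimates. The brightest (1448383_at) had 8.24, 8.74 and 7.55 in Rac1-/- glands and 6.63, 7.39 and 8.95 in WT glands. The WT mice spanned the Rac1-/- mice, with Nas484 the highest of all (log2 fold change 0.52, SE 0.68). Without Nas484 it was 1.19, without Nas478 it was -0.0049, and with arrays scaled to a common median it was -0.091.

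The second probe set of Mmp14 (1416572_at) had a log2 fold change of -0.031 (SE 0.51). The third (1440920_at) had 6.82, 6.62 and 5.76 in Rac1-/- glands and 3.59, 5.57 and 5.29 in WT glands. The groups did not overlap here, with a log2 fold change of 1.58 (SE 0.65, unadjusted p = 0.0395, limma adjusted p = 0.957). The WT mouse Nas478, with the widest range of intensities, gave the lowest value and the estimate was 0.89 without it. Across the settings tried it stayed above 0, between 0.89 and 2.64.

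Mmp9 (gelatinase B, abundant in neutrophils and macrophages) differed by less than the spread of the mice. Its brightest probe set (1416298_at) had 5.34, 6.26 and 5.13 in Rac1-/- glands and 5.75, 5.56 and 6.11 in WT glands, a log2 fold change of -0.23 (SE 0.50). The second probe set (1448291_at) had an estimate of the opposite sign, 0.31 (SE 0.59). On both the groups overlapped, and without normalization between arrays the brightest set gave 0.32. Its estimate was -0.0057 without Nas518 and -0.61 without Nas497. Of 8 neutrophil markers measured, 7 had estimates above 0, 3 of them (Clec4d, Fpr2 and Mpo) without overlap, against 5.41% of all genes. The summed intensity of the 8 was 672 to 860 in Rac1-/- glands and 400 to 582 in WT glands. Clec4d and Fpr2 had log2 fold changes of 2.20 and 1.63 (limma adjusted p = 0.957 for both). S100a8, at the 88.6th percentile, had -0.096, and S100a9, Csf3r, Cxcr2 and Elane overlapped too. Of the 8, 4 were dim (below the 25th percentile of all probe sets), Mpo among them, and none was at the floor. The part of these cells in the Mmp9 values was not tested.

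Mmp3, Mmp12 and Mmp13 lie in the MMP gene cluster on chromosome 9. Mmp3 (stromelysin-1, a stromal enzyme that cleaves laminin, fibronectin and E-cadherin and activates other MMPs) had the largest estimate of the 10 genes, 0.95 (SE 0.51, limma adjusted p = 0.957, exact permutation p = 0.2), or 1.93-fold. On 1418945_at it had 9.22, 8.35 and 9.35 in Rac1-/- glands and 8.40, 8.14 and 7.53 in WT glands. Nas496 and Nas518 lay above every WT mouse, and Nas497 lay just below Nas478. The estimate was 1.33 without Nas497 and 0.70 without Nas484. It was 0.070 with arrays scaled to a common median, where the median of all genes was -0.12.

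Mmp12 (macrophage elastase) had 7.79, 7.36 and 8.92 in Rac1-/- glands and 8.0, 7.41 and 7.64 in WT glands (1449153_at). The groups overlapped and the highest value, that of Nas518, carried the estimate of 0.34 (SE 0.54), which was -0.11 without that mouse and -0.30 with arrays scaled to a common median. Of 12 macrophage markers, 11 had estimates above 0, with a summed intensity of 3883 to 8922 in Rac1-/- glands and 2619 to 4985 in WT glands. These ranges overlap, and no macrophage marker was at the floor. Ctss and Lyz2 had log2 fold changes of 1.28 and 0.82, and with arrays scaled to a common median 0.21 and -0.29. Without Nas484 Ctss was 0.69. The part of macrophages in the Mmp12 values was not tested.

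Mmp13 (collagenase-3, the main interstitial collagenase of rodents) was dim, at the 19.3th percentile of all probe sets by its mean. It had 6.04, 3.32 and 5.90 in Rac1-/- glands and 5.33, 4.86 and 4.21 in WT glands (1417256_at). Nas496 and Nas518 lay above all WT mice and Nas497 below all of them, so the estimate was 0.29 (SE 0.78), or 1.26 without Nas497. It was -0.18 without Nas496, -0.094 without Nas518 and -0.013 without Nas484.

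The promoters of these 3 genes hold the same short motif. The AP-1 site, which Fos and Jun proteins bind, was searched as TGANTCA, whose reverse strand has the same letters, in RefSeq windows from 250 bases before to 50 after each start (GRCm38.p6). It was found in 3 of the 8 member genes with a window and in 5 of 13 other MMP genes, against 8.97% of all 27025 genes with a window and 7.81% of all 32851 windows. A gene counts where any of its windows holds the site. The 3 members were the 3 of chromosome 9, and the 5 others (Mmp1a, Mmp1b, Mmp7, Mmp10 and Mmp20) lie there too, while Mmp8 and Mmp27 of chromosome 9 held none. Windows of Mmp11, Mmp14, Timp1, Timp2 and Timp3 held no match either, and of the 2 windows of Mmp12 only one held it. The members Mmp2 and Mmp9 and the other genes Mmp16, Mmp17 and Mmp19 had no window and were not searched. Whether the site is confined to chromosome 9 among MMP genes is thus not known from these windows. A match describes these letters and no binding was measured. The stretch from 60 to 6 bases before the start is shown for each, on the plus strand, with the site in capitals.

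Mmp3, chr9:7445762-7445816: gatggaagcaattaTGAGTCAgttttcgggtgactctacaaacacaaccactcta
Mmp12, chr9:7347314-7347368: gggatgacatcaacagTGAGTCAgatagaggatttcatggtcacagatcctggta
Mmp13, chr9:7272454-7272508: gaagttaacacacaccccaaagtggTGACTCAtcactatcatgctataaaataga

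The site starts 46, 44 and 35 bases before the start in Mmp3, Mmp12 and Mmp13. On the plus strand Mmp3 and Mmp12 have G at the free base and Mmp13 has C, which is the same site read on the other strand. The estimates of the 3 genes were 0.95, 0.34 and 0.29, none past the test, and Nas518 was the highest of the 6 mice for Mmp3 and Mmp12 but not for Mmp13.

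Mmp11 (stromelysin-3, made by fibroblasts next to epithelium and fat) had 7.02, 6.61 and 6.39 in Rac1-/- glands and 5.90, 6.2 and 6.60 in WT glands (1417234_at). Of the Rac1-/- mice, Nas518 lay below the highest WT mouse, Nas484, and the other 2 above it. The log2 fold change was 0.44 (SE 0.46). Its estimate was above 0 under every setting tried, some of which could not move it, from 0.25 without Nas478 to 0.88 without normalization between arrays.

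Fibroblast markers were set beside these stromal proteases. Of 10 measured, 7 had estimates above 0 and 0 were free of overlap. Their summed intensity was 8244 to 22939 in Rac1-/- glands and 12917 to 19993 in WT glands, and the list's median estimate was 0.085. The 3 below 0 were Fap (-0.53), Pdgfrb (-0.63) and Col1a1 (-0.20), and Pdgfrb was 0.36 without Nas497. Those above 0 ran from Col1a2 at 0.0073 to Vim at 0.36.

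Over all 22 probe sets, 9 of 11 MMP sets had estimates above 0, and 2 of 11 TIMP sets did, against 46.8% of all probe sets. Of the MMP sets 2 were free of overlap with Rac1-/- above, as was 1 TIMP set (background 4.27%), and none of the 22 lay wholly below (background 5.34%). The count of TIMP sets is mostly a count of Timp2 and Timp3, which hold 10 of the 11 sets. It changed with the setting: 6 of the 11 TIMP sets were above 0 without Nas497 and Nas484 and 1 was with arrays scaled to a common median, while of the 11 MMP sets 10 and 6 were.

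**Figure D2:**
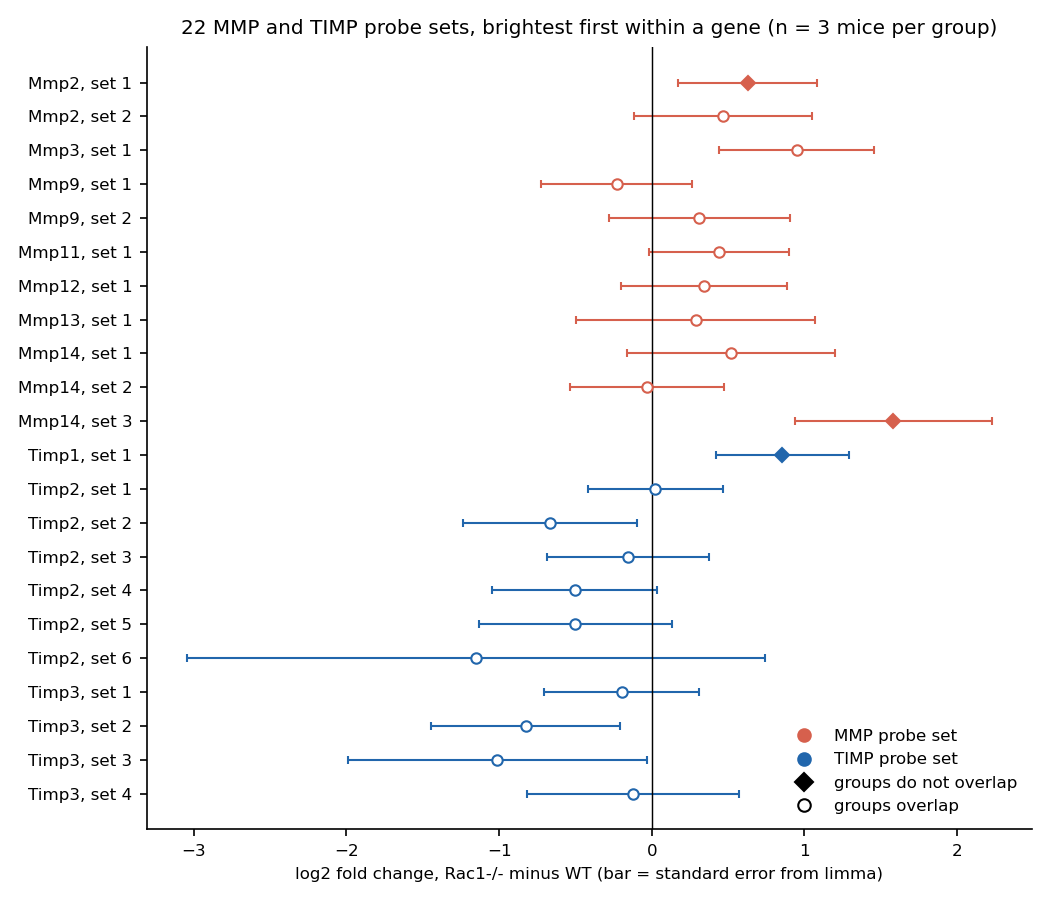
Log2 fold change, Rac1-/- minus WT, of each of the 22 probe sets with its standard error from limma (n = 3 mice per group), the brightest set of a gene first. MMP sets are red and TIMP sets blue, and filled diamonds mark the 3 sets on which the groups do not overlap; 9 of 11 MMP sets lie right of 0 and 9 of 11 TIMP sets left of it with quantile normalization, and 6 and 10 with arrays scaled to a common median.

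The 10 genes had a median estimate of 0.39 (log2), with 8 above and 2 below 0, against a median of 0.060 over all genes. It was 0.44 over the 7 proteases and 0.022 over the 3 inhibitors. With arrays scaled to a common median the 10 genes had a median of -0.054 where all genes had -0.12, so the gap to all genes shrank to 0.063, against 0.33 with quantile normalization.

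The 3 Rac1-/- mice differed among themselves. When each gene was centred on its mean over the 6 mice, the 7 proteases deviated on average by 0.43, -0.11 and 0.31 log2 units in the Rac1-/- mice Nas496, Nas497 and Nas518. They deviated by -0.27, -0.28 and -0.088 in the WT mice Nas478, Nas483 and Nas484. Nas497 thus lay with the WT mice, next to Nas484. The 3 inhibitors deviated by 0.076, -0.059 and 0.32 in Rac1-/- mice and by -0.34, 0.012 and -0.0099 in WT mice. Proteases minus inhibitors gave 0.36, -0.050 and -0.018 in Rac1-/- mice and 0.076, -0.29 and -0.078 in WT mice, and the groups overlapped. Nas496 was the highest of the 6 mice for 4 of the 10 genes and Nas518 for 3, while Nas478 was the lowest for 5.

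Nas497 and Nas484, the arrays highest on the first principal component, were also left out together. The sign of a component is arbitrary, and Nas478 (-113) and Nas483 (-115) lay farther from 0 on it than Nas484 (101). For the proteases Nas497 was the lowest Rac1-/- mouse (-0.11) and Nas484 the highest WT mouse (-0.088). Leaving them out therefore widens the gap between the groups by construction. Without these 2 mice the groups were fully apart, with Rac1-/- higher, in 6 of the 10 genes: Mmp2, Mmp3, Mmp11, Mmp13, Mmp14 and Timp1. In 1 gene, Mmp9, they were apart with Rac1-/- lower. This compares 2 mice with 2, where 21.8% of all genes lay wholly above and 17.4% wholly below, and 0 of the 10 genes passed limma's test. The median of the 10 genes was then 0.84 against 0.062 over all genes.

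**Figure D3:**
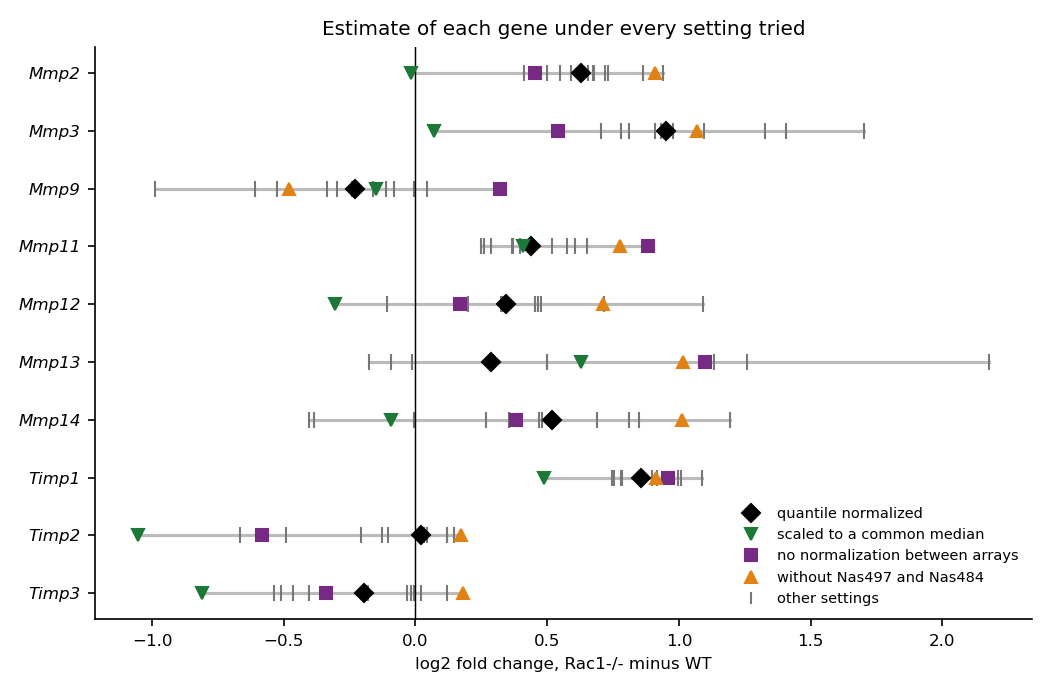
Log2 fold change, Rac1-/- minus WT, of each of the 10 genes under quantile normalization (black diamonds) and under every alternative setting (other marks), with a grey line for the range. Mmp3, Mmp11 and Timp1 stay right of 0 throughout, though Mmp3 reaches 0.070 with arrays scaled to a common median, and the other 7 genes cross 0. Some settings cannot move the estimate of a gene with 1 probe set, such as Mmp3, Mmp11 and Timp1.

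Further MMP genes were looked at as a list. Of 16 listed, 11 had a probe set that names them alone, 9 with estimates above 0 and 2 below, and a median estimate of 0.29. Mmp16, a membrane-type MMP, had 1.07 (SE 0.52), with 5.18, 6.01 and 5.65 in Rac1-/- glands and 3.84, 4.65 and 5.14 in WT glands, and its groups did not overlap. It was dim, at the 22.4th percentile, and its estimate was 0.67 without Nas478 and 0.51 as the mean of its probe sets. Mmp7 (matrilysin, an epithelial MMP) had 1.28 (SE 0.67) with overlapping groups, or 0.56 without Nas478. Over all 18 MMP genes measured, the 9 on chromosome 9 had a median of 0.95 with 8 above 0, and the 9 elsewhere had 0.29 with 7 above 0. This split was made after the values were seen. Most of the chromosome 9 genes with high estimates (Mmp1a, Mmp1b, Mmp7 and Mmp10) lay low on the array, between the 7.81th and 25.5th percentile, and their lowest value came from a WT mouse, Nas478 for Mmp1a, Mmp1b and Mmp7 and Nas483 for Mmp10. All genes below the 25th percentile had a median of 0.13.

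The listed inhibitors outside the members, Timp4, Reck, A2m and Pzp, had estimates of 0.52, 0.16, 0.32 and 0.27, all with overlapping groups. Timp4 is a TIMP of heart and fat tissue, A2m a plasma protein that traps proteases. With the 3' minus 5' difference of actin as a covariate, which itself separated the genotypes, A2m was -0.35. Without Nas484 Timp4 was 0.18, and without Nas497 A2m was 0.014.

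Of 6 genes of the plasminogen activator system, which makes the plasmin that activates several MMP precursors, 3 had estimates above and 3 below 0. Serpinf2, the plasmin inhibitor, had 5.90, 6.22 and 6.19 in Rac1-/- glands and 5.14, 4.85 and 5.78 in WT glands, without overlap (0.85, SE 0.47). Plaur, the urokinase receptor, had 0.81 (SE 0.78), or -0.65 with that actin covariate. It was 0.13 without Nas483 and 0.21 without Nas497.

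Of 8 genes that activate or stabilize MMPs, 6 had estimates below 0, with a median of -0.54. Furin, the convertase that cleaves the precursors of Mmp11 and Mmp14, had 8.04, 5.72 and 6.49 in Rac1-/- glands and 7.73, 8.85 and 7.73 in WT glands. Nas496 alone of the Rac1-/- mice lay within the WT range (log2 fold change -1.35, SE 0.69). Prss8, an epithelial membrane serine protease, had -1.01 (SE 0.63), or -0.63 without Nas518. The summed intensity of 9 secretory luminal markers was 73950 to 112960 in Rac1-/- glands and 175623 to 200049 in WT glands, with log2 fold changes of -2.77 for Wap and -2.07 for Lalba (limma adjusted p = 0.957 for both). Of the 9, 7 had estimates below 0, 4 of them without overlap, against 4.2% of all genes wholly below. The keratins Krt18 (0.90, without overlap) and Krt8 (0.87) were above 0, the epithelial adhesion molecule Epcam was at -0.14, and the milk protein genes make up most of the sum. The part of this in the values of Furin and Prss8 was not tested.

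Among 11 ADAM and ADAMTS proteases, 9 had estimates above 0, with a median of 0.39. Adamts4, an aggrecan- and versican-cleaving protease, had 6.33, 5.50 and 7.11 in Rac1-/- glands and 1.93, 4.79 and 5.39 in WT glands. The groups did not overlap, and the log2 fold change was 2.28 (SE 0.92, limma adjusted p = 0.957), or 1.13 without Nas478, the lowest of the 6 on this dim probe set. Adam8, a leukocyte ADAM, had 1.21 (SE 0.73) with overlapping groups, or 0.41 without Nas478. Adam10, a sheddase of Notch and cadherins, was the one gene of the list with every Rac1-/- value below every WT value (-0.54, SE 0.45).

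Of 14 matrix substrates, 7 lay above and 7 below 0 with a median of -0.015. Fn1 (fibronectin) had 8.97, 8.59 and 8.79 in Rac1-/- glands and 7.79, 7.94 and 7.65 in WT glands. The groups did not overlap, and the log2 fold change was 0.99 (SE 0.43, unadjusted p = 0.0493, limma adjusted p = 0.957), or 0.15 with arrays scaled to a common median. Lamc1, a laminin chain of the basement membrane, had -1.04 (SE 0.58) with overlapping groups, or -0.57 without Nas484. The collagen genes Col1a1, Col1a2 and Col3a1 had -0.20, 0.0073 and 0.26.

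**Figure D4:**
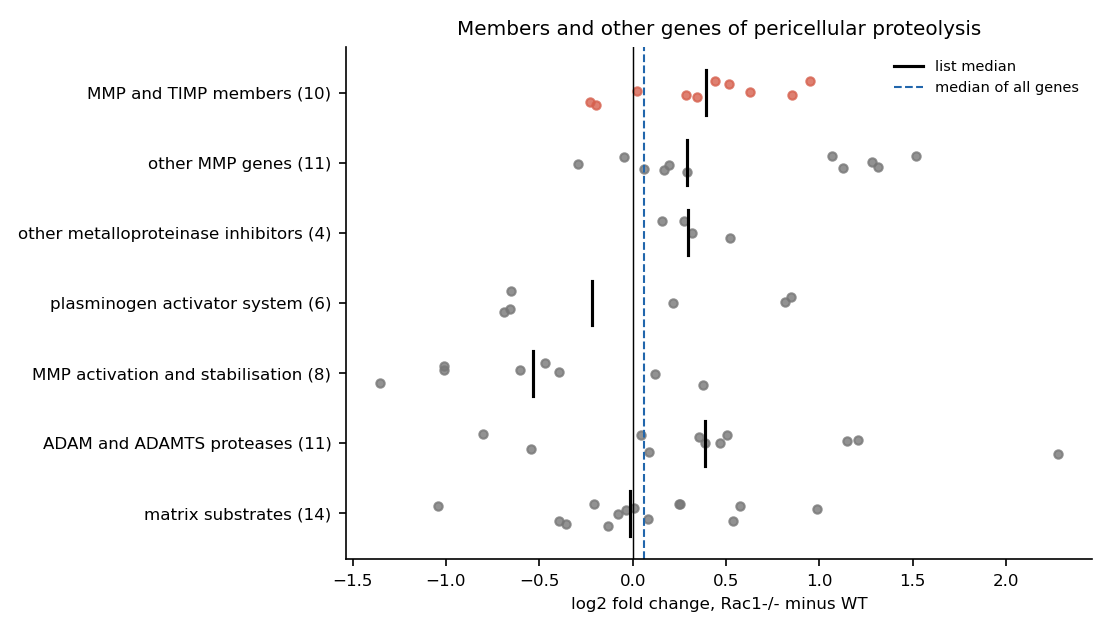
Log2 fold change, Rac1-/- minus WT, of the 10 member genes (red) and of 6 lists of other genes of proteolysis around cells and its substrates (grey), 1 point per gene, with the number of genes in brackets. The list medians run from -0.54 for MMP activation and stabilisation to 0.39 for the members and the ADAM and ADAMTS proteases, against 0.060 over all genes (dashed).

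Markers of other cells of the gland were measured too. Myoepithelial markers summed to 2703 to 4183 in Rac1-/- glands and 1732 to 2410 in WT glands, and 5 of 8 had estimates above 0. Acta2 had 1.24 and Krt14 1.25, which were 0.23 and 0.68 with arrays scaled to a common median, and Krt14 was 0.57 without Nas484. Mylk (0.83), Myh11 (0.34) and Oxtr (0.021) were also above 0, while Krt5 (-0.18), Trp63 (-0.38) and Cnn1 (-0.45) were below. Summed intensities overlapped for adipocyte, skeletal muscle and B and T cell markers. Of 6 adipocyte markers 4 were above 0, with Pparg at -0.81 (-0.48 without Nas484) and Lep at 0.87 (0.26 without Nas496). Of 8 skeletal muscle markers 3 were above 0, with Myl1 at 0.93 (0.28 without Nas483) and Acta1 at -1.11 (-0.034 without Nas497). Of 9 B and T cell markers 6 were above 0, with a median of 0.16, from Cd4 at -0.66 to Ccr7 at 1.19 (0.39 without Nas483), and Cd8a had 0.86 (0.42 without Nas497). No marker of any list was at the floor. Their part in the MMP and TIMP values was not tested.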

How the data were processed

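RNA of 6 mammary glands was amplified with the Affymetrix Sensation kit and hybridized to mouse 430 GeneChip arrays. The paper describes this kit as one for small amounts of RNA of low quality. The authors deposited linear intensities, 1 per probe set. How they were summarised and scaled is not given in the sources used here, but each array averages 100 once the outer 2% at both ends are removed, and 0 pairs of arrays are identical. No detection calls or counts were used, so the number of arrays limits the precision.

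Intensities were quantile normalized (limma 3.58.1, R 4.3.3), set to at least 1 (82 to 1151 values per array were lower before normalization) and taken to log2, the scale of every level and difference printed unless another is named. Of 45101 probe sets, 34958 are annotated with 1 symbol, 932 with several and 9211 with none. The 34754 symbols with an Entrez ID in RefSeq (GRCm38.p6) were checked and 0 differed. All 34958 were fitted with lmFit and eBayes, Rac1-/- minus WT, with Benjamini-Hochberg adjustment and a threshold of 0.05. Genes with several probe sets take the one with the highest mean. The fit was tried on simulated data with independent noise in each gene and array, so differences shared across an array were not covered. The members, the 14 gene lists, the settings and the tests were chosen with earlier results of these data known. All members are named, with mouse values for further probe sets that separate the groups or differ in sign by at least 0.5, and 2 genes per list, those of lowest p. Other genes named were chosen after their values were seen. Protein sequences and listed genes without a probe set of their own were not analysed here. The labels number no replicates, so mice were not paired. Alternatives changed the normalization, the floor, the mice, the covariates, the variance model, the features and the choice of probe set.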

Additional observations from a re-analysis of the deposited data

How the results depend on the processing

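No member gene, member probe set or listed gene passed limma's adjusted test under any alternative (lowest adjusted p of a member gene 0.523). With the main settings 2 of the 10 genes had every Rac1-/- value above every WT value. The number was 0 with arrays scaled to a common median (4.5% of all genes) and 1 without normalization between arrays (6.82%). It was 1 when a gene's probe sets were averaged (4.83%) and 6 without both Nas497 and Nas484 (21.8%). When single mice were left out it lay between 2 and 4. Wholly below were Timp2 without normalization (3.3% of all genes) and Timp3 without Nas478 (6.61%). Mmp9 was wholly below without Nas497 (9.02%) and without both Nas497 and Nas484 (17.4%). Leaving out 1 mouse gave 7.87% to 17% of all genes wholly above, against 5.41% with all mice. The counts of 4 came without Nas497 (9.56% of all genes) and without Nas484 (17%). The median estimate of the 10 genes, 0.39, was -0.054 with a common median. It was 0.84 without Nas497 and Nas484, the lowest Rac1-/- and the highest WT mouse for the proteases. The median was 0.65 with the actin 3' to 5' difference as covariate, and 0.30 to 0.62 without single mice. That actin difference itself separated the genotypes and was lowest in Nas497 (-1.24). Estimates adjusted for it are therefore confounded with genotype and lean on that array. With a common median the sign turned for Mmp2 (-0.017), Mmp12 (-0.30), Mmp14 (-0.091), Timp2 (-1.05) and Lyz2 (-0.29). Without normalization it turned for Mmp9 (0.32) and Timp2 (-0.58). With the actin covariate it turned for Mmp14 (-0.41), Timp3 (0.12), Cd8a (-0.11), Pdgfrb (1.75), A2m (-0.35), Plaur (-0.65) and Acta1 (0.90), and with the interquartile range for Mmp14 (-0.38), Timp2 (-0.21), Pdgfrb (0.94) and A2m (-0.10). It turned for Timp3 with array weights (0.022) and without Nas497 and Nas484 (0.18). With averaged probe sets it turned for Mmp9 (0.042) and Timp2 (-0.49). Without probe sets named _x_at or _s_at, which leaves out 1433662_s_at, Timp2 was read on another set, 1460287_at (-0.67). Without single mice Mmp9 ran from -0.61 to -0.0057, Mmp12 from -0.11 to 0.72, Mmp13 from -0.18 to 1.26, Mmp14 from -0.0049 to 1.19, Timp2 from -0.13 to 0.15 and Pdgfrb from -1.67 to 0.36. The cause was not tested. Mmp3, Mmp11 and Timp1 kept their sign in all 19 alternatives, but not all of these could move them. Each has 1 probe set, so settings on the choice of probe set left their estimates unchanged. So did the filter on dim sets, a prior variance following the mean and a block term for Nas497 and Nas484. Their sign was open to change only under the other alternatives. With the filter on dim probe sets Mmp9, Mmp13 and the third Mmp14 set were not tested. No paired analysis was possible because the labels give the mice no replicate numbers. Probe sets near the background carry less information than bright ones, and with 3 arrays per group a gene without a call may still have changed.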
